A study of Mus musculus with 66 samples.

Results

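Amd-ps3 is a processed pseudogene of the S-adenosylmethionine decarboxylase gene Amd1, and it was followed here with Amd1, its second near-identical copy Amd2, and 4 further genes of polyamine turnover (Odc1, Srm, Sms and Sat1) in mice with spontaneous mutations of Rorb. These 7 genes were taken from a list, out of 45706 gene identifiers in the deposited tables. Amd-ps3 was chosen by its measured levels across these same libraries, so its levels and fold changes are a description and carry no test. Amd1, Amd2, Odc1, Srm, Sms and Sat1 were read from fits over all genes.

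Bulk polyA RNA-seq was made from 66 libraries of 30 mice in 20 groups of genotype and tissue. Of these mice, 24 gave a brain hemisection and a spinal cord (age 7.9 to 9.6 weeks) and 6 gave cortex, hippocampus and cerebellum (age 7.0 weeks). The replicates of a group are therefore separate mice. In brain and in spinal cord there were 3 wild-type C57BL/6J mice, 3 Rorb h1/h1 mice (h1), 4 Rorb h2/h2 mice (h2), 4 Rorb h3/h3 mice (h3), 4 Rorb h4/h4 mice (h4), 3 wild-type DBA/1J mice and 3 Rorb h5/h5 mice (h5). The 3 dissected regions came from 3 DBA/1J and 3 h5 mice each. All mutants were homozygous and arose spontaneously. From the methods of the study, h1 carries a duplication at the first exon of the Rorb1 isoform on C57BL/6J, h4 a premature stop codon on B6.129S7-Il1r1 tm1/mx/J, and h5 a lost start codon of the same isoform on DBA/1J. The h2 and h3 lines arose on B6(Cg)-Tyr c-2J/J and their Rorb mutations were not identified. C57BL/6J was the control of h1, h2, h3 and h4, so these comparisons share the same 3 control mice and are not independent. The animal identifiers of h1 belong to the same series as those of C57BL/6J, while h2, h3 and h4 each have a series of their own. Against C57BL/6J, the Rorb allele, the background strain and that series cannot be told apart in h2, h3 or h4. Between h2 and h3, which share a named background, the allele and the series cannot be told apart, and each allele is a single line.

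Library totals were 32889755 to 59120536 expected counts. In spinal cord the summed level of the position markers Hoxc8, Hoxc9 and Hoxa7 was 91.1 to 114 TPM, against 0.00 to 2.75 TPM in brain. Rorb itself was lower in h4 than in C57BL/6J by a log2 fold change of -2.10 in brain (SE 0.10, adjusted p = 2.4e-06) and -2.21 in spinal cord (SE 0.09, adjusted p = 7.7e-09, edgeR). In h3 it was -0.05 (SE 0.06, adjusted p = 0.85) and -0.02 (SE 0.07, adjusted p = 0.95). The brain of DBA/1J replicate 1 held 0.78 TPM of the summed cerebellar markers Pcp2, Gabra6 and Cbln3, against 188 to 461 TPM in the other brain libraries. The edgeR values and calls for the 6 genes, and the calls for the further pathway genes, are also given without it, while counts at an unadjusted p, DESeq2 counts and marker counts include it. Xist and Ddx3y went against the labelled sex in 3 libraries, namely replicate 3 of h5 in cortex, hippocampus and cerebellum.

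Polyamines (putrescine, spermidine and spermine) are small cations that bind nucleic acids and ion channels, and their synthesis is held under tight feedback control. Ornithine decarboxylase makes putrescine, S-adenosylmethionine decarboxylase makes the aminopropyl donor, and spermidine synthase and spermine synthase add aminopropyl groups in turn. Spermidine/spermine N1-acetyltransferase marks polyamines for breakdown or export, and in the nervous system spermine also modulates glutamate receptor channels.

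The 3 Amd genes are so alike that the reads themselves limit what can be told apart, and their sequences are therefore given first. In the GRCm38.p6 coordinates of RefSeq, Amd1 (ENSMUSG00000075232) lies at chr10:40287458-40302188 and Amd2 (ENSMUSG00000063953) at chr10:35708691-35711891. In the GENCODE vM39 annotation Amd-ps3 and Amd2 have 1 exon each, while the 21 transcripts of Amd1 have 2 to 9 exons. Over the 1005 bases of the Amd-ps3 model, Amd1 and Amd-ps3 differed at 1 position (99.9% identity), which is position 528 of the Amd1 reading frame counted from its start codon. Amd-ps3 keeps an open reading frame of 1005 bases over that length. The Amd-ps3 entry of the deposited tables has a length of 1496 bases, so the counts rest on a longer model than the one compared here, and its remaining bases were not compared. The reading frames of Amd1 and Amd2 differed at position 796 only, and the full transcripts at 10 mismatches and 4 gap columns of 3202 aligned columns (99.6% identity). Of the 856 windows of 150 bases (the read length) in the Amd1 reading frame, 706 (82.5%) held no difference from Amd-ps3, and 706 held none from Amd2. A read from such a window that carries no other difference cannot be assigned by its own sequence. The reads were paired, so a mate that covers a difference can place the pair, and the share of pairs without a difference was not computed. The expected counts split such pairs between the genes by estimation.

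The start regions of Amd1 and Amd2 are shown because their transcripts share sequence there while the bases before the start do not match. Printed are 90 bases of each from RefSeq (GRCm38.p6, minus strand, 5′ to 3′), with the bases that both share from the start of transcription in capitals.
Amd1, chr10:40302159-40302248: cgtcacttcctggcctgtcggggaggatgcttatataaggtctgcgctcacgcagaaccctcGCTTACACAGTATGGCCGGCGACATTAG
Amd2, chr10:35711864-35711953: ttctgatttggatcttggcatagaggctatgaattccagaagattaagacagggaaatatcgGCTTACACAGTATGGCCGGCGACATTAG
The shared stretch began at base 3 from the annotated start site of Amd1 and at base 1 of Amd2. It ran for 48 bases in the 300-base entries, of which 28 are printed. Elsewhere in these entries the longest shared stretch was 7 bases. The letters TATATAA stand 29 bases before the start site of Amd1 and were not in the windows of Amd2, Odc1, Sms or Sat1. They occur on either strand in 3.24% of 32851 promoter windows of the same length.

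Non-whole expected counts, the mark of reads divided between genes, occurred for Amd-ps3, Amd1 and Amd2 in 66 of 66 libraries. For Odc1 they occurred in 65 libraries, for Sms in 64, and for Srm and Sat1 in none. The remaining Amd pseudogenes in the tables stayed near 0, with at most 2.21 expected counts for Amd-ps4, 3.0 for Amd-ps1 and 1.0 for Amd-ps5 in any library.

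Amd-ps3 was low in most mice and was found at higher levels in all 4 h3 mice and in 2 of the 4 h4 mice. Levels are given as CPM, the expected count scaled to the library total, and they fell into 3 ranges. They are the reads that the estimation gave to Amd-ps3. Transcripts of Amd-ps3 and of an Amd1 gene that carries the Amd-ps3 base cannot be told apart over the compared length from these tables, in h3 and h4 as in the other mice. There were 54 libraries between 0.149 and 1.05 CPM, 8 libraries between 3.54 and 4.82 CPM, and 4 libraries between 6.86 and 8.41 CPM. The wide gap was the one from 1.05 to 3.54 CPM, a ratio of 3.36, and the next was from 4.82 to 6.86 CPM, a ratio of 1.42. Within the low range the widest gaps, from 0.149 to 0.191 and from 0.191 to 0.244 CPM, each had a ratio of 1.28, so the gap below the upper range was only a little wider than these.

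In h3 brain, Amd-ps3 stood at 4.19, 4.81, 8.04 and 7.57 CPM in replicates 1 to 4. In the spinal cords of the same 4 mice it stood at 4.55, 4.55, 6.86 and 8.41 CPM. Replicates 1 and 2 were in the middle range and replicates 3 and 4 in the upper range, in both tissues. The middle mice were both male and 9.6 and 8.3 weeks old, and the upper mice were 1 female and 1 male, both 8.0 weeks old, and the part of age was not tested. The exact 95% Clopper-Pearson intervals, which cover counting error only, were 4.16 to 5.55 CPM for brain replicate 2 and 6.75 to 8.49 CPM for brain replicate 4. The corresponding intervals in spinal cord were 3.97 to 5.22 CPM for replicate 2 and 6.07 to 7.74 CPM for replicate 3. The ranges were set from these same levels, so the intervals are a description and test no step. They also take the divided, rounded counts as whole reads and leave out the error of that division.

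In h4 brain, Amd-ps3 stood at 0.643, 3.54, 0.544 and 3.94 CPM in replicates 1 to 4. In the spinal cords it stood at 0.697, 4.82, 0.879 and 3.57 CPM. Replicates 2 and 4 were in the middle range and replicates 1 and 3 in the low range, again in both tissues. In expected counts the step was from 22.09 and 18.44 to 160.74 and 175.99 in brain. The low range held 1 female (replicate 1) and 1 male (replicate 3), as did the middle range (replicates 2 and 4), and their ages were 8.4 to 8.6 weeks.

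In C57BL/6J, Amd-ps3 stood at 0.684, 0.842 and 0.458 CPM in brain and at 0.608, 0.389 and 0.524 CPM in spinal cord. In h1 it ranged from 0.464 to 1.05 CPM in brain and from 0.555 to 0.715 CPM in spinal cord, and in h2 from 0.539 to 0.811 CPM and from 0.252 to 0.965 CPM. On the DBA/1J background (DBA/1J and h5, all tissues, 30 libraries) the levels were 0.149 to 1.02 CPM with a median of 0.462 CPM. All of these libraries were at or below the highest C57BL/6J library, apart from h1 brain replicate 3 (1.05 CPM), h2 spinal cord replicate 1 (0.965 CPM) and h5 cerebellum replicate 3 (1.02 CPM), which lay just above it. In brain and in spinal cord the order of the group means was thus h3, h4 and then all others. Among those others the spreads overlapped in spinal cord. In brain all DBA/1J and h5 libraries (0.244 to 0.454 CPM) lay below all those of C57BL/6J, h1 and h2 (0.458 to 1.05 CPM), with the nearest at 0.454 and 0.458 CPM.

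**Figure D1:**
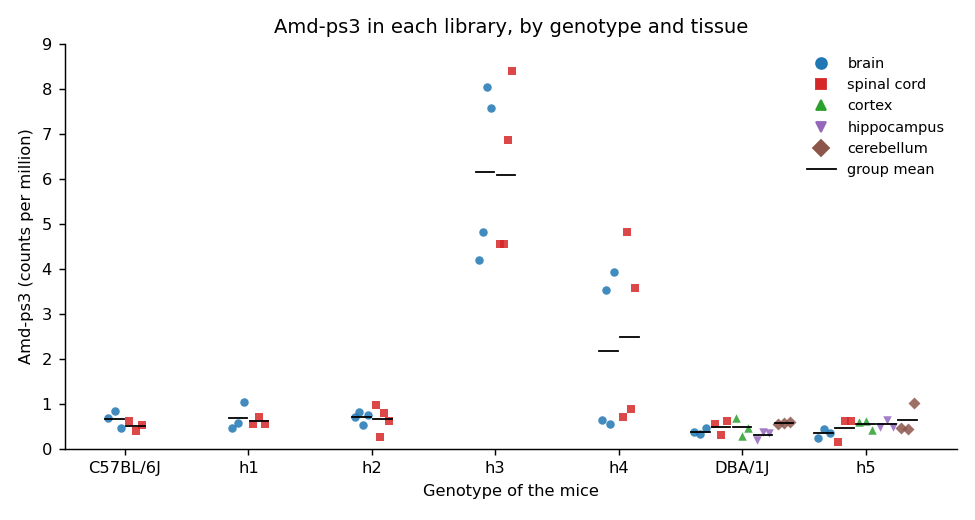
Level of Amd-ps3 in each of the 66 libraries in CPM (vertical axis, linear), by genotype (horizontal axis) and tissue (colour and marker), with the mean of each group as a line. The 4 h3 mice sit between 4.19 and 8.41, the 4 h4 mice split into 0.544 to 0.879 and 3.54 to 4.82, and no other library is above 1.05.

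Brain and spinal cord of one mouse were in the same range in 24 of 24 mice with both tissues, of which 18 were in the low range. The ranges were set from these same levels, so this count is a description. The ratio of the brain level to the spinal cord level was 0.922, 1.06, 1.17 and 0.900 in the h3 mice and 0.922, 0.735, 0.619 and 1.10 in the h4 mice. In the other 16 mice, all in the low range, it was 0.566 to 3.22. The fitted log2 fold change of Amd-ps3 against C57BL/6J was 3.24 (SE 0.30) in h3 brain and 3.60 (SE 0.29) in h3 spinal cord, and 1.80 (SE 0.63) and 2.29 (SE 0.59) in h4. The SE was larger in h4, whose mice are split between the ranges. Leaving out each library in turn gave 3.01 to 3.75 in h3 and 1.29 to 2.63 in h4, and -0.42 to 0.98 in the other comparisons of a mutant with its control, where the estimates with all libraries lay between -0.20 and 0.82.

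The genes most like Amd-ps3 were found by Pearson's r of log2 CPM over the mice, computed in brain and in spinal cord, taking the smaller. The first set held the 18 mice of C57BL/6J, h1, h2, h3 and h4, with 17641 genes. The genes most like Amd-ps3 there were Ide (0.83), Btaf1 (0.77), Cxcl10 (0.74), C4b (0.67) and Trem2 (0.64). Over all 24 mice, among 17948 genes, they were Ide (0.84), Cxcl10 (0.73), Btaf1 (0.68), Fgfbp3 (0.67) and Fcgr3 (0.66). These values describe mice that share genotype and library preparation, and the high Amd-ps3 levels are those of the 4 h3 and 2 of the h4 mice. The h2, h3 and h4 lines arose on strains other than C57BL/6J itself, and the part of strain in these values was not tested. By Spearman's rho Ide ranked 9, Btaf1 8, Cxcl10 18, C4b 237 and Trem2 2 in the first set. In the second Ide ranked 33, Cxcl10 110, Btaf1 165, Fgfbp3 15 and Fcgr3 1. Ide (insulin-degrading enzyme), Btaf1 and Fgfbp3 lie on chromosome 19, Rorb's own chromosome, and not on that of Amd-ps3.

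Ide in brain stood at 116, 116, 119 and 113 CPM in h3, at 91.7, 90.7, 84.1 and 77.7 CPM in h4 and at 55.9 to 69.0 CPM in the other 16 mice. Ide in brain was thus above these 16 in all 4 h4 mice, whereas Amd-ps3 was above them in h4 replicates 2 and 4 only. In spinal cord the h4 levels of Ide were 108, 106, 109 and 103 CPM and the other 16 mice had 64.4 to 74.6 CPM, with h3 at 125 to 134 CPM. The chemokine gene Cxcl10 stood at 0.529 to 0.827 CPM in h3 brain and 0.116 to 0.403 CPM in h4 brain, where the latter lay within the 0.0762 to 0.522 CPM of the other mice.

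**Figure D2:**
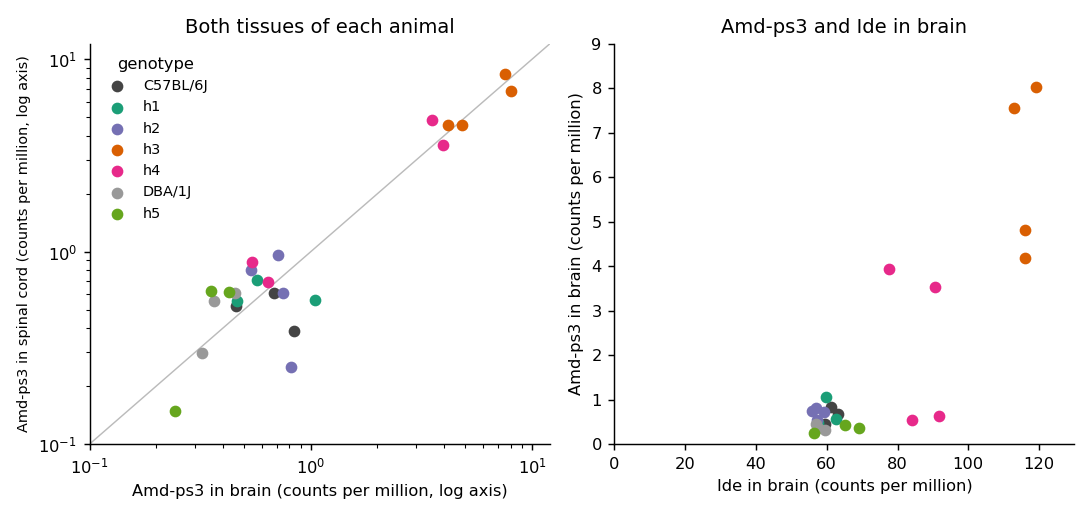
Left, Amd-ps3 in spinal cord against brain in the 24 mice with both tissues, in CPM on log axes, coloured by genotype, with the line of equal levels, and right, Amd-ps3 against Ide in brain in the same mice, in CPM on linear axes. The 6 mice with 3.54 or more in brain have 3.57 or more in spinal cord, and the h4 mice with 0.544 to 0.643 and with 3.54 to 3.94 of Amd-ps3 overlap in Ide (77.7 to 91.7).

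Amd-ps3 (ENSMUSG00000060096) lies at chr18:64448125-64450014 in the same RefSeq coordinates, apart from both Amd1 and Amd2. Within 500 kb of Amd-ps3, 8 genes are annotated with a name and 6 passed the low-count filter, namely Fech, Nedd4l, Atp8b1, Wdr7, Onecut2 and St8sia3. None of the 6 was called in h3 or h4 in either tissue by edgeR's quasi-likelihood test (smallest adjusted p = 0.18), and at an unadjusted p under 0.05 there were 2, both in h4 spinal cord, while DESeq2 called none. Of all genes edgeR called 0.164% in h3 brain, 0.703% in h4 brain, 1.01% in h3 spinal cord and 1.75% in h4 spinal cord, where 14% had an unadjusted p under 0.05, so 0 of 6 called is near the background. The 2 in h4 spinal cord were Nedd4l at -0.12 (SE 0.05) and Atp8b1 at 0.40 (SE 0.14) in log2 fold change. The adjoining gene Fech, which encodes ferrochelatase, was at 0.02 (SE 0.05) in h3 brain, 0.00 (SE 0.06) in h4 brain, 0.00 (SE 0.04) in h3 spinal cord and 0.04 (SE 0.04) in h4 spinal cord.

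Amd-ps3 was low beside Amd1 even in the h3 mice. As a share of the summed expected counts of all Amd genes, Amd-ps3 made up 2.69 to 5.09% in h3 brain and 2.95 to 5.87% in h3 spinal cord. In h4 the share was 0.369 to 2.65% in brain and 0.454 to 3.27% in spinal cord, and in all other libraries it was 0.0832 to 0.659%. Per length, Amd-ps3 reached 12.5 TPM in the highest h3 library, while Amd1 lay between 76.9 and 142 TPM over all libraries.

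Amd1 encodes the S-adenosylmethionine decarboxylase proenzyme and had the highest mean level per length of the 7 genes in each wild-type group, for example 105 TPM (SD 4.17, n = 3) in C57BL/6J brain. Its level was nearly even over the series, from 126 to 173 CPM in C57BL/6J, h1, h2, h3 and h4. In DBA/1J and h5 it was from 143 to 213 CPM. In brain it stood at 162, 169 and 171 CPM in C57BL/6J. It stood at 151, 145, 149 and 142 CPM in h3 and at 144, 151, 146 and 144 CPM in h4. All 8 of these mutant libraries were below the lowest control, a lack of overlap that held for 8.7% of all genes in h3 and 10.1% in h4. The brain libraries of h1 (139 to 158 CPM) and h2 (147 to 161 CPM) were also below the same controls. For h1 and h2 the share of all genes is not given here.

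The log2 fold change of Amd1 in brain was -0.20 (SE 0.04, adjusted p = 0.11) in h3, -0.16 (SE 0.04, adjusted p = 0.13) in h4, -0.15 (SE 0.05, adjusted p = 1.0) in h1 and -0.09 (SE 0.05, adjusted p = 0.72) in h2. In spinal cord it was -0.20 (SE 0.05, adjusted p = 0.060) in h3, -0.18 (SE 0.04, adjusted p = 0.077) in h1, -0.11 (SE 0.04, adjusted p = 0.24) in h4 and -0.05 (SE 0.04, adjusted p = 0.55) in h2. The estimate was below 0 in 8 of 8 comparisons, which share their controls within a tissue. By edgeR's quasi-likelihood test with Benjamini-Hochberg adjustment Amd1 was called in 0 of 13 comparisons of a mutant with its control, 6 had an unadjusted p under 0.05, and DESeq2 called 4. The DESeq2 calls were h3 brain (adjusted p = 0.0025), h4 brain (0.035), h1 spinal cord (0.0065) and h3 spinal cord (0.0048). Among the cell type and region markers, the 1 that edgeR called in these 4 comparisons was the blood gene Hba-a1 in h3 brain (-0.45, SE 0.06). DESeq2 called 0 of them in h4 brain and h1 spinal cord, 3 in h3 brain (Hba-a1, Hbb-bs and the cerebellar gene Gabra6, at -0.45, -0.34 and -0.41) and 3 in h3 spinal cord (the astrocyte gene Aqp4 at -0.22 and the microglial genes Cx3cr1 and Csf1r at 0.22 and 0.23). Their part in the Amd1 values was not tested.

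The spinal cord values of Amd1 were 173, 152 and 161 CPM in C57BL/6J, 130, 138 and 135 CPM in h1, and 149, 141, 126 and 135 CPM in h3. Neither mutant group overlapped the control group, which held for 29.3% of all genes in h1 and 10.9% in h3. The h1 result depended on single controls, since edgeR called Amd1 without C57BL/6J spinal cord replicate 2 (adjusted p = 0.024) or replicate 3 (0.029). In h3 spinal cord edgeR called it without h3 replicate 1 (adjusted p = 0.016) and with all genotypes of the tissue in one fit (0.003). In h5 against DBA/1J the estimates lay between -0.09 and 0.00.

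Because reads are shared, the Amd genes were also summed. In h3 brain the log2 ratio of the group mean to that of C57BL/6J, in CPM, was -0.14 for the sum and -0.19 for Amd1 alone, and in h3 spinal cord it was -0.18 and -0.23. In h4 it was -0.18 and -0.19 in brain and -0.11 and -0.13 in spinal cord. In h1 it was -0.16 and -0.15 in brain and -0.26 and -0.27 in spinal cord. In h2 it was -0.11 for both in brain and -0.05 for both in spinal cord. The sum holds Amd-ps3, which was chosen by its levels and is high in h3. In h3 the sum therefore lies closer to the control than Amd1 alone by construction, and it was still below the control. The log2 ratio of group means carries no test. The ranges of the sum did not overlap between h3 and C57BL/6J in brain (150 to 158 against 164 to 173 CPM) and overlapped in spinal cord (133 to 154 against 153 to 174 CPM). Those of h1, h2 and h4 did not overlap the control in brain either, and in spinal cord that held for h1 only.

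Amd2, the intronless second copy on chromosome 10, separated DBA/1J and h5 from the other genotypes rather than the mutants from their controls. It lay between 0.199 and 1.16 CPM in the 36 libraries of C57BL/6J, h1, h2, h3 and h4. In the 30 libraries of DBA/1J and h5 it lay between 12.5 and 19.6 CPM. In brain it stood at 1.16, 0.810 and 0.684 CPM in C57BL/6J and at 19.2, 16.6 and 16.9 CPM in DBA/1J. In spinal cord it stood at 0.740, 0.714 and 0.852 CPM and at 16.4, 13.9 and 18.4 CPM. The strains were far apart in every library.

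**Figure D3:**
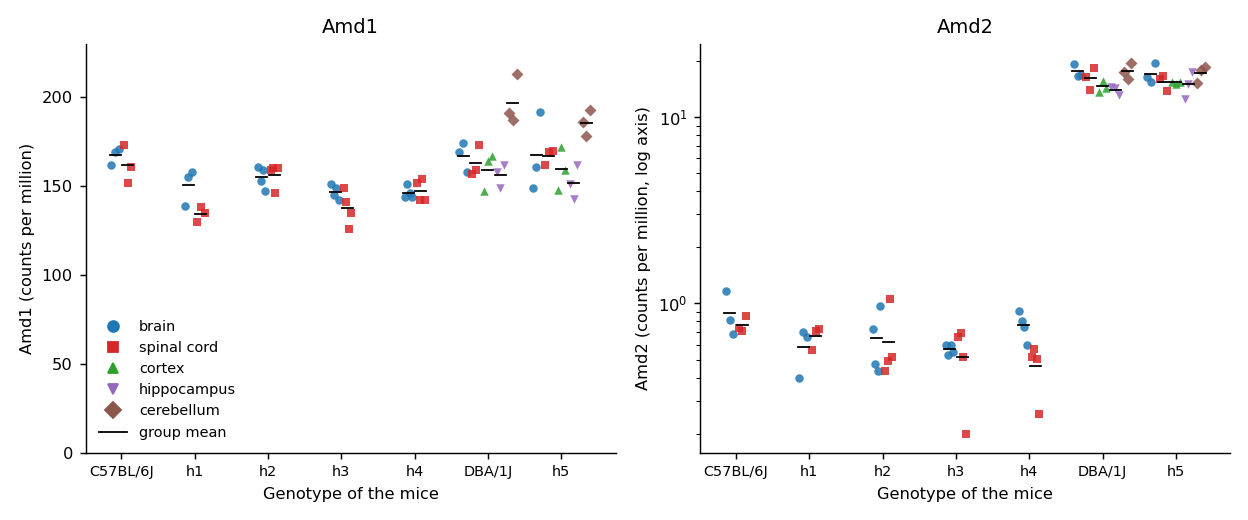
Levels of Amd1 (left, linear axis) and Amd2 (right, log axis) in each library in CPM, by genotype and tissue, with the mean of each group as a line. Amd1 lies between 126 and 213 throughout. Amd2 lies between 0.199 and 1.16 in C57BL/6J, h1, h2, h3 and h4 and between 12.5 and 19.6 in DBA/1J and h5.

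The fold change of Amd2 in DBA/1J against C57BL/6J was 20.8 in brain (log2 4.38, SE 0.17, adjusted p = 2.4e-07) and 21.2 in spinal cord (log2 4.41, SE 0.12, adjusted p = 2.8e-11), by edgeR's quasi-likelihood test. Without DBA/1J brain replicate 1 the log2 value in brain was 4.32. Amd2 took 7.47 to 10.2% of the Amd counts in DBA/1J and h5 and 0.139 to 0.714% in C57BL/6J, h1, h2, h3 and h4. All libraries were aligned to the GRCm38 reference, which comes from C57BL/6J. The DBA/1J sequence of these genes was not used here, and its part in the split of reads between Amd1 and Amd2 was not tested. Amd1 itself was at 0.04 (SE 0.05, adjusted p = 0.70) and 0.03 (SE 0.04, adjusted p = 0.70) between the strains. In the mutants Amd2 was called in 0 of 13 comparisons by edgeR and in 0 of those where DESeq2 gave an adjusted p, with 2 at an unadjusted p under 0.05 and estimates from -0.73 to 0.08.

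Odc1 encodes ornithine decarboxylase, the first and rate-limiting step of the pathway, and it was lower in DBA/1J than in C57BL/6J in both tissues. In brain it stood at 54.0, 54.6 and 54.7 CPM in C57BL/6J and at 39.0, 34.8 and 33.9 CPM in DBA/1J, a log2 fold change of -0.56 (SE 0.06, adjusted p = 0.00031). In spinal cord it stood at 82.3, 80.1 and 83.7 CPM and at 54.0, 51.5 and 53.9 CPM, a log2 fold change of -0.61 (SE 0.04, adjusted p = 2.9e-07). The strains did not overlap in either tissue, as was so for 28.1% of all genes in brain and 30.8% in spinal cord. Without DBA/1J brain replicate 1 the value in brain was -0.61.

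Of the 6 genes tested, Amd2 and Odc1 were thus the 2 called between the strains in brain and the 2 called in spinal cord, against 11.2% and 21.3% of all genes tested. Srm, which encodes spermidine synthase, was at 0.22 in brain (SE 0.07, adjusted p = 0.10, and 0.034 with all genotypes of the tissue in one fit) and at -0.01 in spinal cord. Sms was at 0.16 in brain (SE 0.05, adjusted p = 0.058) and Sat1 at -0.11 (SE 0.09, adjusted p = 0.53). The count called in brain was still 2 without DBA/1J brain replicate 1, with Amd1 at 0.04, Srm at 0.22 (adjusted p = 0.17), Sms at 0.13 (0.16) and Sat1 at -0.11 (0.58). Among the cell type and region markers, 3 of 34 were called between the strains in brain (Mog -1.01, Aqp4 -0.33 and Prox1 -0.21) and 5 of 32 in spinal cord (Mog -0.89, Gfap -0.27, Csf1r 0.37, Hoxc8 -0.39 and Prox1 -0.30). Their part in the strain differences was not tested.

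In the mutants Odc1 was not called. Its log2 fold change was -0.14 to -0.07 in the 8 comparisons with C57BL/6J and -0.06 to 0.11 in the 5 comparisons of h5 with DBA/1J. By edgeR and by DESeq2 it was called in 0 of the 13, with 3 at an unadjusted p under 0.05. The lowest estimate was that of h4 brain, at 48.9, 45.2, 51.1 and 47.0 CPM (SE 0.06, adjusted p = 0.37). All 4 of these libraries were below the controls, as groups did not overlap for 10.1% of all genes. In h5 brain the estimate was 0.16 without DBA/1J brain replicate 1.

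Srm and Sms, the aminopropyl transferases, were not called in a mutant either. Srm was between -0.03 and 0.15 in the comparisons with C57BL/6J and between -0.08 and 0.01 in h5, with 0 calls by edgeR and DESeq2 and 1 unadjusted p under 0.05 (h4 spinal cord, 0.15, SE 0.07, adjusted p = 0.34). Sms, which encodes spermine synthase, was between -0.06 and 0.05 and between -0.07 and 0.03, with 0 calls by either tool and 0 at an unadjusted p under 0.05. The 95% intervals of the log2 fold change of Sms in h3 were -0.05 to 0.11 in brain and -0.05 to 0.15 in spinal cord.

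Sat1, the acetyltransferase that starts polyamine breakdown, was the only one of the 6 genes that edgeR called in a mutant. Its log2 fold change was -0.36 to 0.00 in the 8 comparisons with C57BL/6J, with h3 at -0.03 in brain and 0.00 in spinal cord. In h2 brain Sat1 was at -0.18 (SE 0.06, adjusted p = 0.52 by edgeR), with all libraries below the controls. In h4 brain it stood at 27.9, 31.2, 24.8 and 26.3 CPM against 37.5, 35.4 and 35.7 CPM in C57BL/6J, and the groups did not overlap, as was so for 10.1% of all genes. The log2 fold change was -0.36 (SE 0.07, adjusted p = 0.034 by edgeR and 0.00028 by DESeq2), in a comparison where 0.703% of all genes were called. The call was lost in 6 of the 7 fits that left out 1 library, with adjusted p from 0.051 to 0.15, while the log2 fold change stayed between -0.40 and -0.31 over the 7. It was kept without h4 brain replicate 2 (adjusted p = 0.049). In h4 spinal cord Sat1 was at -0.13 (SE 0.05, adjusted p = 0.25). The effect in spinal cord minus that in brain was 0.23 (SE 0.08, adjusted p = 0.35 for the interaction with the animal as block). Of 34 cell type and region markers, edgeR called 0 in h4 brain, with 11 at an unadjusted p under 0.05 and 0 called by DESeq2. The cerebellar markers Pcp2, Gabra6 and Cbln3 were at -0.55, -0.53 and -0.27 there (adjusted p = 0.20, 0.17 and 0.58), and their sum was 379, 316, 188 and 242 TPM in h4 replicates 1 to 4 against 444, 461 and 306 TPM in C57BL/6J. The 2 h4 libraries with the lowest Sat1, replicates 3 and 4, also had the lowest sums. The sum of C57BL/6J replicate 3 (306 TPM) was below those of h4 replicates 1 and 2, while its Sat1 (35.7 CPM) was above theirs. DBA/1J brain replicate 1, with a sum of 0.78 TPM, had 33.2 CPM of Sat1. The part of these markers in the Sat1 value was not tested.

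In h5, the estimate of Sat1 against DBA/1J was below 0 in 5 of 5 tissues, and edgeR called it in none. These are not 5 independent results, since each mouse gave more than 1 of the tissues. The share of all genes with the same sign in all 5 is not given here. The groups overlapped in brain (-0.17, SE 0.09), spinal cord (-0.19, SE 0.06) and cerebellum (-0.07, SE 0.07). In cortex Sat1 stood at 21.0, 23.0 and 23.6 CPM in h5 and at 43.2, 31.5 and 26.5 CPM in DBA/1J. The h5 values were close together and below all controls, which were spread widely, and 13.1% of all genes had groups that did not overlap. The log2 fold change was -0.60 (SE 0.15, adjusted p = 0.73 by edgeR and 0.025 by DESeq2), and it was -0.74 (adjusted p = 0.022) without DBA/1J cortex replicate 3. Without h5 cortex replicate 3, whose sex label went against its data, it was -0.65 (adjusted p = 0.75), and with the series of animal identifiers as a block it was -0.40 (adjusted p = 0.43). The summed choroid plexus markers Ttr, Folr1 and Kcnj13 were 17.0 to 860 TPM in DBA/1J cortex and 31.3 to 664 TPM in h5 cortex. The summed astrocyte markers were 174 to 189 TPM in DBA/1J cortex and 224 to 301 TPM in h5 cortex, and the meninges markers 16.8 to 22.5 and 23.2 to 35.3 TPM, with no overlap. Of the markers in cortex edgeR called 0 of 32, with 4 at an unadjusted p under 0.05, and DESeq2 called Gfap (0.75) and Col1a1 (0.98). In hippocampus Sat1 stood at 23.7, 21.0 and 20.8 CPM in h5 and at 30.2, 26.6 and 26.2 CPM in DBA/1J (log2 fold change -0.36, SE 0.09, adjusted p = 0.88). These groups did not overlap, as for 9.42% of all genes, and without h5 hippocampus replicate 3 the value was -0.31 (adjusted p = 0.98). The astrocyte markers were apart there too, at 312 to 325 TPM in DBA/1J and 371 to 414 TPM in h5, and DESeq2 called Gfap (0.33). The part of these markers in the Sat1 values was not tested.

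Over the mutant comparisons the count of the 6 genes called by edgeR was 1 in h4 brain and 0 in the other 12. The shares of all genes called were 0% in h1 brain, 0.136% in h2 brain, 0.164% in h3 brain, 0.289% in h1 spinal cord, 2.09% in h2 spinal cord, 1.01% in h3 spinal cord and 1.75% in h4 spinal cord. In h5 they were 0% in brain and cortex, 0.00581% in spinal cord, 0.0118% in hippocampus and 0.012% in cerebellum. A count of 0 among 6 genes is thus near the background. In h5 brain it was also 0 without DBA/1J brain replicate 1, with Amd1 at -0.08, Amd2 at -0.06, Srm at -0.08, Sms at -0.05, Sat1 at -0.17 and, as a description, Amd-ps3 at -0.25. At an unadjusted p under 0.05 the count of the 6 genes in brain was 1 in h1, 1 in h2, 2 in h3 and 3 in h4, against 4.23%, 7.45%, 10.4% and 13.2% of all genes. In spinal cord it was 1, 1, 2 and 4 against 11.3%, 15.6%, 13.6% and 14%. In h5 cerebellum (5.62%) and brain (5.8%) it was 0, while h5 spinal cord (8.9%), hippocampus (4.22%) and cortex (6.42%) had 1 each.

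The DESeq2 shares are of the genes to which it gave an adjusted p, and these were larger than edgeR's shares of all genes tested in each of the 13. The 2 bases differ, for example 139 of 6490 genes in h1 spinal cord by DESeq2 and 50 of 17309 by edgeR. In brain DESeq2 called 0 of the 6 in h1, 0 in h2, 1 in h3 (Amd1) and 2 in h4 (Amd1 and Sat1), against 0.094%, 0.642%, 1.41% and 3.14% of the genes with an adjusted p. In spinal cord it called 1 in h1 (Amd1), 0 in h2, 1 in h3 (Amd1) and 0 in h4, against 2.14%, 4.37%, 3.33% and 4.39%. In h5 it called 1 in cortex (Sat1, 0.343%) and 0 in brain (0.477%), spinal cord (0.577%), hippocampus (0.251%) and cerebellum (0.261%). The difference of a mutant effect between brain and spinal cord was called for none of the 6 genes in h1 to h5, where edgeR called 2 of all genes in h4 (0.0108%) and 0 (0%) in the others.

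**Figure D4:**
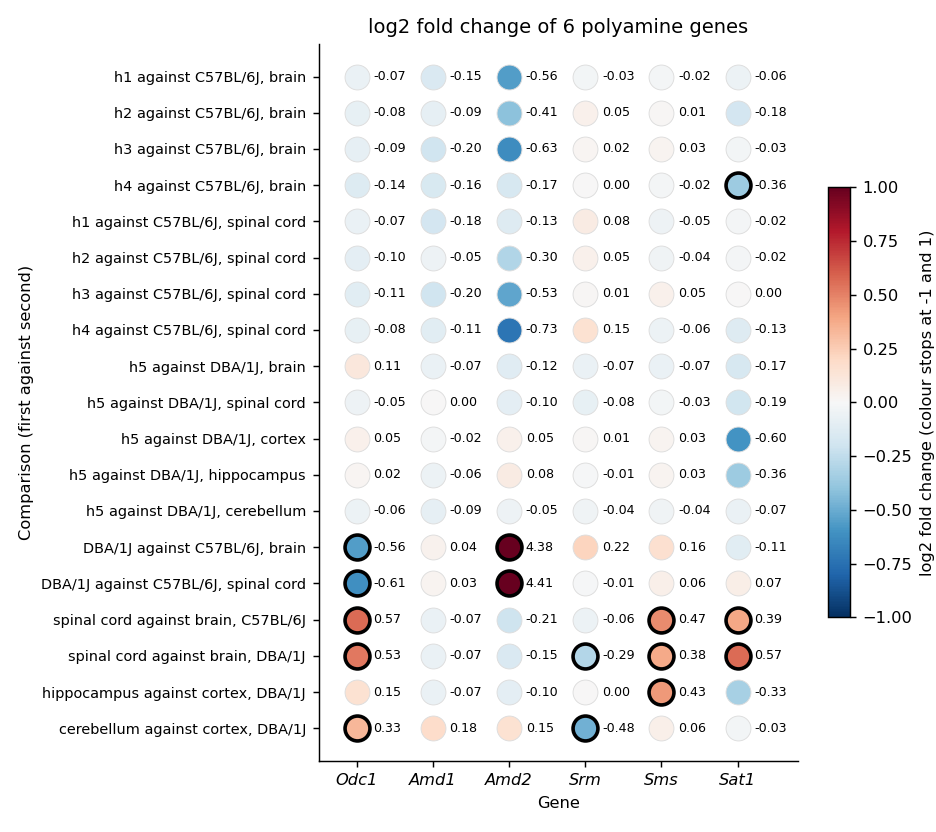
The log2 fold change of Odc1, Amd1, Amd2, Srm, Sms and Sat1 (columns) in each comparison (rows), as colour that stops at -1 and 1 and as a printed value, with a black ring where edgeR's adjusted p is under 0.05. Among the mutants only Sat1 in h4 brain (-0.36) has a ring, while the strain and tissue comparisons hold the others.

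Between spinal cord and brain, 3 of the 6 genes were called in C57BL/6J and 4 in DBA/1J, where 56.9% and 50.8% of all genes were called. Odc1, Sms and Sat1 were higher in spinal cord in both strains. In bulk tissue, fewer cells of a type and less RNA per cell cannot be told apart. The oligodendrocyte markers Mbp and Mog were higher in spinal cord by log2 fold changes of 1.88 and 1.66 in C57BL/6J and 2.12 and 1.78 in DBA/1J. The summed astrocyte markers were 1190 to 1710 TPM in spinal cord and 233 to 391 TPM in brain. Of the markers, 28 of 37 were called between the tissues in C57BL/6J and 25 of 35 in DBA/1J, and their part in these differences was not tested.

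Odc1 in spinal cord, at the values given above, exceeded brain by a log2 fold change of 0.57 (SE 0.05, adjusted p = 2.3e-07) in C57BL/6J and 0.53 (SE 0.06, adjusted p = 6.5e-05) in DBA/1J. Sms stood at 176, 152 and 164 CPM in C57BL/6J spinal cord and at 114, 120 and 117 CPM in brain, a log2 fold change of 0.47 (SE 0.05, adjusted p = 3.2e-06). In DBA/1J it stood at 166, 158 and 183 CPM and at 133, 122 and 125 CPM, a log2 fold change of 0.38 (SE 0.04, adjusted p = 4.6e-05). In both strains every spinal cord library was above every brain library for these genes, and 61.7% of all genes in C57BL/6J and 56.2% in DBA/1J had tissues that did not overlap.

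Sat1 stood at 47.5, 45.6 and 50.9 CPM in C57BL/6J spinal cord and at 37.5, 35.4 and 35.7 CPM in brain, a log2 fold change of 0.39 (SE 0.06, adjusted p = 0.00012). In DBA/1J it stood at 45.4, 47.9 and 55.6 CPM and at 33.2, 35.9 and 28.6 CPM, a log2 fold change of 0.57 (SE 0.09, adjusted p = 0.00055). Both strains thus had Sat1 higher in spinal cord with no overlap. Srm went the other way in DBA/1J, at 17.8, 16.3 and 19.3 CPM against 21.3, 20.5 and 21.7 CPM (log2 fold change -0.29, SE 0.07, adjusted p = 0.0054), while in C57BL/6J it was at -0.06 (SE 0.07, adjusted p = 0.46). Whether the tissue effect on Srm differs between strains was not tested. Without DBA/1J brain replicate 1, the count called in DBA/1J was still 4, with Odc1 at 0.58, Sms at 0.41, Sat1 at 0.57 and Srm at -0.30 (adjusted p = 0.0093), and Amd1 at -0.08 and Amd2 at -0.10 were not called. Amd1 and Amd2 were not called in either strain (Amd1 -0.07 in both, adjusted p = 0.24).

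Among the dissected DBA/1J regions, 1 of the 6 genes was called between hippocampus and cortex (20.6% of all genes) and 2 between cerebellum and cortex (58.1%). Sms was higher in hippocampus, at 158, 145 and 147 CPM against 100, 106 and 116 CPM in cortex (log2 fold change 0.43, SE 0.08, adjusted p = 0.0054). Odc1 was higher in cerebellum, at 40.5, 40.5 and 40.8 CPM against 28.0, 29.7 and 31.2 CPM (0.33, SE 0.08, adjusted p = 0.0055). Neither pair of groups overlapped, as for 39.2% of all genes between hippocampus and cortex and 67.7% between cerebellum and cortex. Srm was lower in cerebellum, at 19.4, 21.1 and 17.1 CPM against 25.6, 24.8 and 23.2 CPM (-0.48, SE 0.09, adjusted p = 0.0018). Sat1 in hippocampus was at -0.33 (SE 0.15, adjusted p = 0.17), and at -0.47 (adjusted p = 0.024) without DBA/1J cortex replicate 3. Amd1 in cerebellum was at 191, 187 and 213 CPM against 147, 164 and 167 CPM (0.18, SE 0.09, adjusted p = 0.11), and reached an adjusted p of 0.038 with all tissues of DBA/1J in one fit. Of the markers, 16 of 32 were called between hippocampus and cortex and 23 of 34 between cerebellum and cortex, and their part was not tested.

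Per length, the order of the genes in C57BL/6J brain was Amd1 at 105 TPM (SD 4.17), Sat1 at 71.6 TPM (SD 1.14), Sms at 67.2 TPM (SD 3.02), Odc1 at 44.0 TPM (SD 1.09), Srm at 33.0 TPM (SD 2.00), Amd-ps3 at 0.990 TPM (SD 0.305) and Amd2 at 0.557 TPM (SD 0.148, n = 3 each). Sat1 and Sms were neighbours in that order, with single libraries at 70.3 to 72.4 TPM and 64.1 to 70.1 TPM. Amd-ps3 and Amd2 were also neighbours, and their libraries overlapped. In DBA/1J brain Amd2 stood at 11.0 TPM (SD 0.647) and Odc1 at 28.8 TPM (SD 1.67), below Srm at 36.3 TPM (SD 0.789). Odc1 and Srm thus stood in opposite order in the brains of the 2 strains, also without DBA/1J brain replicate 1 (27.9 and 36.7 TPM).

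**Figure D5:**
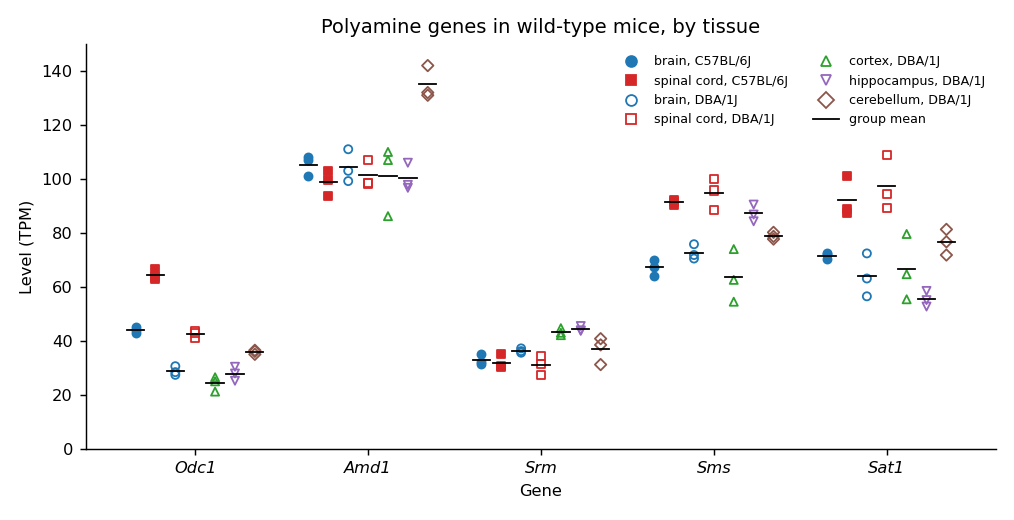
Levels of Odc1, Amd1, Srm, Sms and Sat1 in each wild-type library in TPM (linear axis from 0), by tissue (colour and marker) and strain (filled for C57BL/6J, open for DBA/1J), with group means as lines. Odc1 is higher in spinal cord than in brain and lower in DBA/1J than in C57BL/6J (44.0 and 64.4 TPM against 28.8 and 42.6 TPM as means of brain and spinal cord).

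The other genes of the pathway, 33 on a list that covers control of ornithine decarboxylase, breakdown, precursor supply, methylthioadenosine salvage, hypusine formation and transport, had 1 call by edgeR over the 13 mutant comparisons. Of the 27 to 29 that passed the filter, 0 were called by edgeR in 12 of these comparisons. At an unadjusted p under 0.05 there were 9 of 27 in h4 spinal cord and 6 of 29 in h4 brain, where 14% and 13.2% of all genes were, and 0 to 6 in the others, where 4.22 to 15.6% of all genes were. DESeq2 called 2 list genes in h4 brain, h2 spinal cord and h3 spinal cord (3.14%, 4.37% and 3.33% of the genes to which it gave an adjusted p) and 0 in the others. The exception was h2 spinal cord, where Adi1, a dioxygenase of methionine salvage, was lower by a log2 fold change of -0.19 (SE 0.05, adjusted p = 0.047), where 1.21% of all genes were called lower. In the same comparison edgeR called 3 of 32 markers, all lower (the neuronal gene Gad1 at -0.19, Aqp4 at -0.17 and Hba-a1 at -0.38), 12 had an unadjusted p under 0.05, and the 4 neuronal markers were between -0.35 and -0.08. Their part in the Adi1 value was not tested. In h3 the median log2 fold change of the list was 0.00 in brain and -0.02 in spinal cord.

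Between the strains, 2 of 29 list genes were higher and 4 lower in DBA/1J brain, against 4.04% and 7.2% of all genes. In spinal cord 5 of 26 were higher and 5 lower, against 8.55% and 12.7%. The salvage genes Adi1 (0.42 in brain and 0.70 in spinal cord), Mri1 (-0.74 and -0.91, named after its values were seen) and Apip (-0.50 and -0.36) were called in both tissues, as was Azin2, which encodes an antizyme inhibitor (0.30 and 0.26), and Sat2 (-1.12 and -0.74). The call of Azin2 in brain was lost without the low-count filter (adjusted p = 0.053), and that of Apip in spinal cord under DESeq2 (adjusted p = 0.068). Without DBA/1J brain replicate 1, 1 gene was higher and 4 were lower in brain. Azin2 (0.30, adjusted p = 0.086) and Apip (-0.41, adjusted p = 0.072) then lost their calls, Eif5a2 gained one (-0.36, adjusted p = 0.0016), and Adi1 (0.44), Mri1 (-0.69) and Sat2 (adjusted p = 0.003) kept theirs. Between spinal cord and brain, 9 of 29 were higher and 8 lower in C57BL/6J, against 28.3% and 28.5% of all genes. In DBA/1J 11 of 29 were higher and 8 lower, against 25.3% and 25.6%. Smox, which encodes spermine oxidase, rose with Sat1 in spinal cord (0.44, SE 0.07, in C57BL/6J and 0.53, SE 0.07, in DBA/1J). Mtap, the phosphorylase that clears the methylthioadenosine made by Srm and Sms, was higher by 1.43 (SE 0.07) and 1.21 (SE 0.08), and Eif5a2, a protein modified with spermidine, by 1.21 (SE 0.04) and 1.06 (SE 0.08). The organic cation transporter Slc22a3 stood at -2.26 (SE 0.33) and -2.83 (SE 0.39), and all of these were called in both strains. The DBA/1J count was 10 higher and 8 lower without DBA/1J brain replicate 1 (0 and 0 in h5 brain), and Smox (0.46), Mtap (1.29), Eif5a2 (1.16) and Slc22a3 (-2.70) were called. The choroid plexus markers summed to 0.2 to 3.71 TPM in spinal cord and 369 to 1120 TPM in brain, and their part in these values was not tested.

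Between the regions, 1 of 29 list genes was higher and 3 lower in hippocampus than in cortex, against 9.78% and 10.8% of all genes. The lower genes were Agmat (-3.88, SE 0.62), Slc22a3 (-1.80, SE 0.27) and Mat2b, a subunit of the S-adenosylmethionine synthesis complex (-0.53, SE 0.07). The higher gene was the vesicular polyamine transporter Slc18b1 (0.34, SE 0.10, adjusted p = 0.041), named after its values were seen, whose call was lost without the low-count filter (adjusted p = 0.052). In cerebellum 8 of 30 were higher and 11 lower than in cortex, against 28.6% and 29.5% of all genes. Oaz1, the antizyme that targets ornithine decarboxylase for degradation, was at 0.26 (SE 0.07) and Oaz2 at -0.24 (SE 0.07). Mat2b was lower there too (-0.55, SE 0.08).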

How the data were processed

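PolyA RNA from 66 mouse libraries was sequenced as paired-end reads of 150 bases. The authors trimmed reads with Trim Galore, aligned them with STAR to GRCm38 and deposited RSEM expected counts and TPM per gene, with FastQC for quality. Which gene annotation release they counted on is not given in the sources used here. The deposited expected counts were rounded for testing, and the deposited TPM values were used as given to compare levels between genes. RSEM divides reads that fit several genes, so 5.07% of values were not whole (tolerance 0.001).

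Groups followed the labels. The 7 genes and the gene lists were chosen with earlier results of these data known. Each comparison was fitted over all genes that passed filterByExpr with edgeR 4.0.16 (R 4.3.3, TMM, quasi-likelihood test, two-sided, Benjamini-Hochberg adjustment), and a gene was called at an adjusted p under 0.05. DESeq2 1.42.0, DESeq2 size factors, no filter, a replicate block, one fit over all groups and leaving out each library were the alternatives. Settings were tested on simulated data with 200 changed genes. The genes most like Amd-ps3 were the 5 with the highest r of log2 CPM (prior count 2). The genes named were the 7 genes, the expressed genes within 500 kb of Amd-ps3, Rorb, the genes most like Amd-ps3 and up to 4 called genes of each list, first those called in most comparisons. Of 45706 identifiers, 41407 had a symbol in GENCODE vM39 and 31197 a RefSeq position. No 2 replicates held identical values (78 pairs). Depth was 32889755 to 59120536 counts.

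Mice that share a replicate number across genotypes are different animals. The smallest correlation of deviations from the group means between equal numbers was 0.17 in h1 brain (0.17 to 0.33) and h4 brain (0.17 to 0.23). It was lower in all other comparisons. Spinal cord and brain came from the same mice, as did the regions, by their identifiers. Values of some genes on the lists are not reported here.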

Additional observations from a re-analysis of the deposited data

Results flagged for a closer look

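Among 36 groups of 4 mice (6 genes in 6 groups, without Amd-ps3), 3 held a value far from the other 3 by Dixon's criterion at the 95% level, where about 1 in 20 would by chance. Amd1 in the spinal cord of h2 replicate 3 stood at 146.0 CPM, against 159 to 160 CPM in the other h2 mice. Amd2 in the same library stood at 1.05 CPM, against 0.434 to 0.515 CPM. Srm in the spinal cord of h4 replicate 4 stood at 17.5 CPM, against 20.4 to 20.8 CPM in the other h4 mice. The reads shared between Amd1 and Amd2 and their part in the first 2 values were not tested.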

How the results depend on the processing

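No result changed direction past its threshold under any alternative that was run. DESeq2 called 1 of the 6 genes in h3 brain, 2 in h4 brain, 1 in h1 spinal cord, 1 in h3 spinal cord and 1 in h5 cortex, where edgeR called 0, 1, 0, 0 and 0. Without the low-count filter the count was 1 in h1 spinal cord and 1 in h3 spinal cord, both Amd1. With the replicate number as a block it was 1 in h3 spinal cord (Amd1, adjusted p = 0.037), where the samples share only a number, and the block changed no other call of the 6 genes. With all groups of the tissue in one fit it was 1 in h3 spinal cord, and 3 in place of 2 both between the strains in brain (Srm added) and between cerebellum and cortex (Amd1 added). Leaving out each library gave 0 to 1 in h4 brain, h1 spinal cord, h3 spinal cord and h5 cortex, and 1 to 2 between hippocampus and cortex. The log2 fold change of Amd-ps3 in h5 cerebellum lay between -0.36 (without h5 replicate 3) and 0.35. Leaving out single libraries also changed its sign in h1 brain (-0.34 to 0.29), h2 brain (-0.10 to 0.30), h5 spinal cord (-0.40 to 0.30) and h5 cortex (-0.12 to 0.51). The cause of these differences was not tested. Amd-ps3, Amd1 and Amd2 share most of their sequence, and their levels depend on how RSEM divided the reads. Groups of 3 or 4 mice limit what can be called, and the same controls serve h1, h2, h3 and h4.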

Other observations

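Between spinal cord and brain, 3 of the 5 genes of methylthioadenosine salvage were called in each strain, all higher in spinal cord, where 28.3% of all genes in C57BL/6J and 25.3% in DBA/1J were called higher. Besides Mtap these were Enoph1, by a log2 fold change of 0.29 in C57BL/6J and 0.38 in DBA/1J, and Adi1, by 0.56 and 0.84. Mat2a, which encodes the catalytic subunit of S-adenosylmethionine synthetase, was higher by 0.25 and 0.30, while Mat2b stood at -0.53 and -0.50. The lysosomal polyamine exporter Atp13a2 was higher by 0.47 and 0.22. Among the transporters, Slc47a1 stood at -4.86 and -4.54 and Slc22a2 at -4.13 and -3.23. Without DBA/1J brain replicate 1 these 7 genes were called in DBA/1J in the same directions (Enoph1 0.40, Adi1 0.82, Mat2a 0.35, Mat2b -0.55, Atp13a2 0.23, Slc47a1 -4.70 and Slc22a2 -3.09). With all libraries, the median log2 fold changes of the markers in C57BL/6J and DBA/1J were 1.883 and 2.124 for oligodendrocytes and 1.605 and 1.814 for astrocytes. For choroid plexus they were -9.339 and -6.423, and for meninges -0.964 and -0.982. The part of these markers in the values was not tested.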
